A study of Mus musculus with 12 samples.

Results

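Resting B (RB) cells that received anti-CD40 together with Pam2CSK4 were compared with RB cells that received Pam2CSK4 alone. The comparison used 4 of the 12 arrays of the series, chosen by their labels: 2 arrays of anti-CD40 and Pam2CSK4 and 2 arrays of Pam2CSK4. The other 8 arrays held 2 each of unstimulated RB cells and of RB cells given anti-CD40, anti-CD86, or anti-CD86 and Pam2CSK4. All groups were RB cells from the spleen of BALB/c mice, labelled female and 6 weeks old, cultured for 4 h in RPMI medium with foetal calf serum, and their total RNA was read with 1 dye, Cy3, on an Agilent array. By the study's methods the cells were selected negatively with anti-CD43, which leaves B cells that have not been activated, and the Pam2CSK4 dose was 50 ng/ml. The methods allow mice of either sex, and the dose of anti-CD40 is not given in the sources used here. The study's captions describe the array data in its figures, which concern anti-CD86 and Pam2CSK4, as 2 biological replicates. The arrays had no label that ties them to single animals, so the p-values measure the spread between these arrays, which may in part be technical. Both arrays of anti-CD40 and Pam2CSK4 lay on slide 1. Of the Pam2CSK4 arrays, replicate 1 lay on slide 1 and replicate 2 on slide 2, which was scanned in a separate run.

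CD40 is a receptor of the TNF receptor family on B cells. Its ligand, carried by activated helper T cells, recruits TRAF adaptor proteins to the inner side of the membrane, and these lead to the classical NF-kB pathway, in which IkB inhibitors are degraded, and to the alternative pathway, in which the kinase encoded by Map3k14 leads to processing of the Nfkb2 product. Pam2CSK4 is a synthetic lipopeptide that binds TLR2 paired with TLR6 and signals through MyD88 and the IRAK kinases, also to classical NF-kB. In B cells CD40 is known for survival, growth and entry into cell division, and for the germinal centre response.

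Levels are log2 processed signals minus the 75th percentile of their array, so that 0 is the 75th percentile and 1 unit is a doubling. Log2 fold changes are anti-CD40 and Pam2CSK4 minus Pam2CSK4, from 1 limma fit over all 12 arrays with slide as a term, with a standard error (SE) and a Benjamini-Hochberg adjusted p over 31599 probes, and a probe or gene was called where that p was under 0.05. Because Pam2CSK4 replicate 2 lay on the other slide, a fitted change can differ from the plain difference of the group means. A gene was read from its brightest tested probe. Of the 41 called genes named here that had another fitted probe, 17 had one that was not called or was called in the opposite direction, and their values are given with the genes. The share of probes well above background was 46.6 to 50.6% on slide 1 and 48.7 to 60.6% on slide 2, where anti-CD40 replicate 2 stood apart at 60.6%. Saturated probes, with the scanner at its ceiling on both arrays of a group, got no fold change.

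Adding anti-CD40 to Pam2CSK4 changed the level of many transcripts. Of the 31599 probes, 9950 were called, 31.5%, with 5452 higher (17.3%) and 4498 lower (14.2%). Of the 15003 genes with a fitted value, 5436 were called (36.2%), 2475 higher (16.5%) and 2961 lower (19.7%), and the median of all of them was -0.03. Most changes were small: 264 genes (1.76%) were called and at least 2-fold higher, and 166 (1.11%) were called and at least 2-fold lower. These shares are the background for every list that follows. The call leans on the spread of the other groups, since the 4 arrays on their own called 0 probes in limma, with 9283 at an unadjusted p under 0.05. The count was 6355 without anti-CD40 and Pam2CSK4 replicate 2, 4435 without Pam2CSK4 replicate 1 and 6456 without Pam2CSK4 replicate 2. Centring each array on its median in place of its 75th percentile moved the median of all probes from 0.03 to -0.14 and left 1560 calls, 35.1% of them higher, against 54.8% of the 9950.

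The arrays of anti-CD40 and Pam2CSK4 also stood apart from all others by their liver transcripts. Over 31 liver genes on the array, the summed level (linear, with the 75th percentile of the array as 1) was 18.7 to 19.3 on these arrays, 56.4 to 68.1 on the Pam2CSK4 arrays and 43.0 to 85.5 over the other 4 groups. Serum albumin (Alb) stood at -2.47 and -3.47 on the anti-CD40 and Pam2CSK4 arrays and at 1.77 and 1.51 on the Pam2CSK4 arrays. RB cells are not known to make albumin or the major urinary proteins, and these transcripts were lower with anti-CD40 and Pam2CSK4. Mup1 and Mup2 were above background on all 12 arrays, but Alb on only 1 of the 2 anti-CD40 and Pam2CSK4 arrays. The source of the liver transcripts was not tested. Their part in the other differences was not tested. The liver genes are described in full after the B cell genes.

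The gene highest by fold change with a known role in B cell activation was Il2ra, the alpha chain of the IL-2 receptor (CD25). It lay at -0.15 and 0.02 on the Pam2CSK4 arrays and at 2.48 and 2.29 on the anti-CD40 and Pam2CSK4 arrays. The level was 5.56-fold higher (log2 fold change 2.48 ± 0.10, adjusted p = 5.71e-05). The groups did not overlap, which the rule for naming the 12 highest genes required and which held for 58.5% of all probes. Bcl2l1, which encodes the survival protein Bcl-xL, stood at 1.82 and 1.77 with Pam2CSK4 and at 4.39 and 4.22 with anti-CD40 and Pam2CSK4, 5.49-fold higher (2.46 ± 0.10, adjusted p = 5.78e-05). A pair of other Bcl2l1 probes gave 2.22 and 2.34. Zbtb46, a zinc finger transcription factor best known from dendritic cells, was 4.58-fold higher (2.20 ± 0.09), from 0.30 and 0.19 to 2.57 and 2.48. These 3 genes were also high with anti-CD40 alone, where Il2ra stood at 1.88 and 1.72 against -1.85 and -1.82 in unstimulated cells. Olfr1394, an olfactory receptor gene, and Kcnj14, a potassium channel gene, followed the same order at low levels. Olfr1394 was at -2.72 and -1.81 with Pam2CSK4 and at -0.70 and -0.38 with the addition (2.17 ± 0.25, adjusted p = 0.0014), and Kcnj14 at -2.22 and -2.69 against -0.47 and -0.33 (1.98 ± 0.18, adjusted p = 0.000564).

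The other 7 of the 12 highest genes lay higher on both anti-CD40 and Pam2CSK4 arrays than on any of the other 10. These genes were picked for their rise over Pam2CSK4 on the same arrays, so part of this order was set by the choice. The share of all probes with this order was not counted. Gm2180, a predicted gene, stood at 5.55 and 5.51 on these arrays, while the remaining 10 arrays lay between 2.61 and 3.67 (5.64-fold over Pam2CSK4, 2.50 ± 0.06, adjusted p = 7.78e-06). Med1, which encodes a subunit of the Mediator complex that links transcription factors to RNA polymerase II, was at -0.08 and -0.26 with Pam2CSK4 and at 2.01 and 1.95 with the addition (4.31-fold, 2.11 ± 0.07, adjusted p = 2.25e-05). Slc7a1, a transporter of arginine and lysine, went from -1.45 and -1.61 to 0.37 and 0.56 (4.21-fold, 2.07 ± 0.19, adjusted p = 0.000564). Plagl2, a zinc finger transcription factor, was 4.15-fold higher (2.05 ± 0.06), at 4.19 and 4.22 against 2.20 and 1.90. Chmp4b, a subunit of the ESCRT-III complex of membrane scission, stood at 5.85 and 5.88 against 3.93 and 3.62 (3.82-fold, 1.93 ± 0.05, adjusted p = 1.11e-05), with a second probe at 0.48. Chtf8, part of a clamp loader used in DNA replication, rose by 2.35 ± 0.25 and Zfp445, a zinc finger gene, by 2.10 ± 0.08. The other probes of Zfp445 gave 1.90 and 0.70, and the 0.70 did not pass the test (adjusted p = 0.26).

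**Figure D1:**
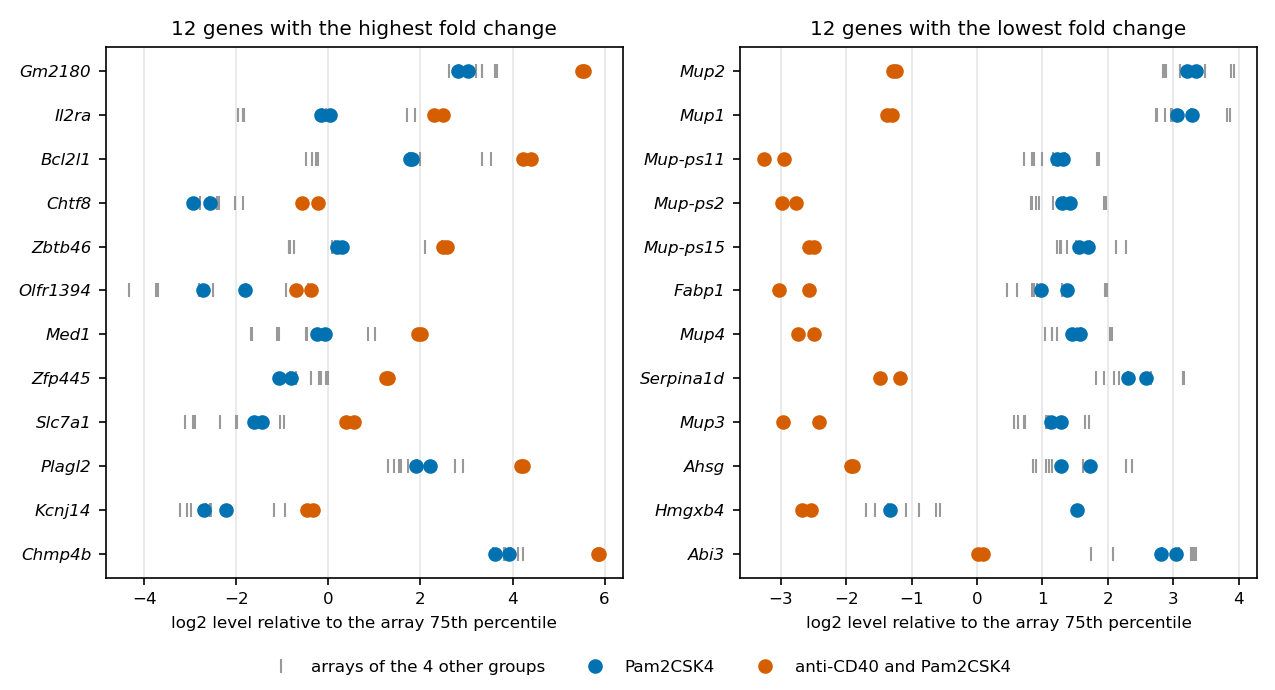
Levels of 24 called genes, the 12 that rose most and the 12 that fell most, all measured above background on all 4 arrays, without overlap between the groups; the x axis is the log2 level relative to the array 75th percentile and each point is 1 array. Blue points are Pam2CSK4, orange points anti-CD40 and Pam2CSK4, and grey ticks the 8 arrays of the 4 other groups. Orange points lie to the right of both blue points for genes such as Il2ra (2.48 and 2.29 against -0.15 and 0.02) and far to the left for the Mup genes, while the Pam2CSK4 arrays of Hmgxb4 lie far from each other (1.53 and -1.33).

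Among 22 genes of CD40 signalling, 9 were higher, 4 lower and 9 not called, with a median of 0.21. The background was 16.5% higher and 19.7% lower among all fitted genes. The receptor itself, Cd40, stood at 3.22 and 2.91 on the Pam2CSK4 arrays and at 4.21 and 4.29 on the anti-CD40 and Pam2CSK4 arrays, 1.95-fold higher (0.96 ± 0.07, adjusted p = 0.000292), and 2 more Cd40 probes gave 1.20 and 1.13. Traf1, an adaptor that is itself induced by NF-kB, went from 3.61 and 3.41 to 4.69 and 4.81 (2.21-fold, 1.14 ± 0.06, adjusted p = 0.000121). The groups did not overlap for either gene, as for 58.5% of all probes. The inhibitor of apoptosis genes Birc3 and Birc2, whose products are ubiquitin ligases at the receptor, were higher by 0.82 ± 0.15 and 0.72 ± 0.06. Birc3 lay at 6.05 and 5.82 with Pam2CSK4 and at 6.89 and 6.80 with the addition.

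Of the other TRAF genes, Traf6 (0.77 ± 0.06, adjusted p = 0.00046) and Traf3 (0.40 ± 0.07, adjusted p = 0.00614) were higher, and Traf2 was not called (0.08 ± 0.06). Traf5 was the member with the largest fall: it stood at 5.07 and 4.94 with Pam2CSK4 and at 3.85 and 4.05 with anti-CD40 and Pam2CSK4, 2.26-fold lower (-1.17 ± 0.09, adjusted p = 0.000307). Traf4 gave -0.49 ± 0.06 on its brightest probe and 0.51 on its other probe, so its direction is not settled here. Map3k14, the kinase of the alternative pathway, was higher by 0.56 ± 0.07, with levels of 4.41 and 4.32 against 3.76 and 3.59. Tnfaip3, which encodes the ubiquitin editing enzyme A20 that ends NF-kB signals, was higher by 0.61 ± 0.05 (6.76 and 6.73 against 6.12 and 5.91), and Tank, a TRAF binding protein, by 0.64 ± 0.06. The deubiquitinase gene Cyld was lower (-0.48 ± 0.09, adjusted p = 0.00769), with other probes at -0.30 and, not called, -0.15. Otud7b, another deubiquitinase gene, was lower on its brightest probe (-0.27 ± 0.06), while its other probes gave 0.33, 0.44 and -0.37.

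The 9 members that were not called were Traf2, Tnip1, Tnip2, Tbk1, Ikbke, Chuk, Ikbkb, Ikbkg and N4bp1, with fold changes from -0.17 to 0.41, among them the IkB kinase subunits. Without Pam2CSK4 replicate 1 the calls of Birc3 (0.87), Traf3 (0.38), Cyld (-0.46) and Otud7b (-0.26) were lost. Otud7b was also lost without anti-CD40 and Pam2CSK4 replicate 1 (-0.23) and without Pam2CSK4 replicate 2 (-0.27). With each array centred on its median, 1 member stayed called higher (Traf1) and 1 lower (Traf5), and the list's median was 0.03.

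**Figure D2:**
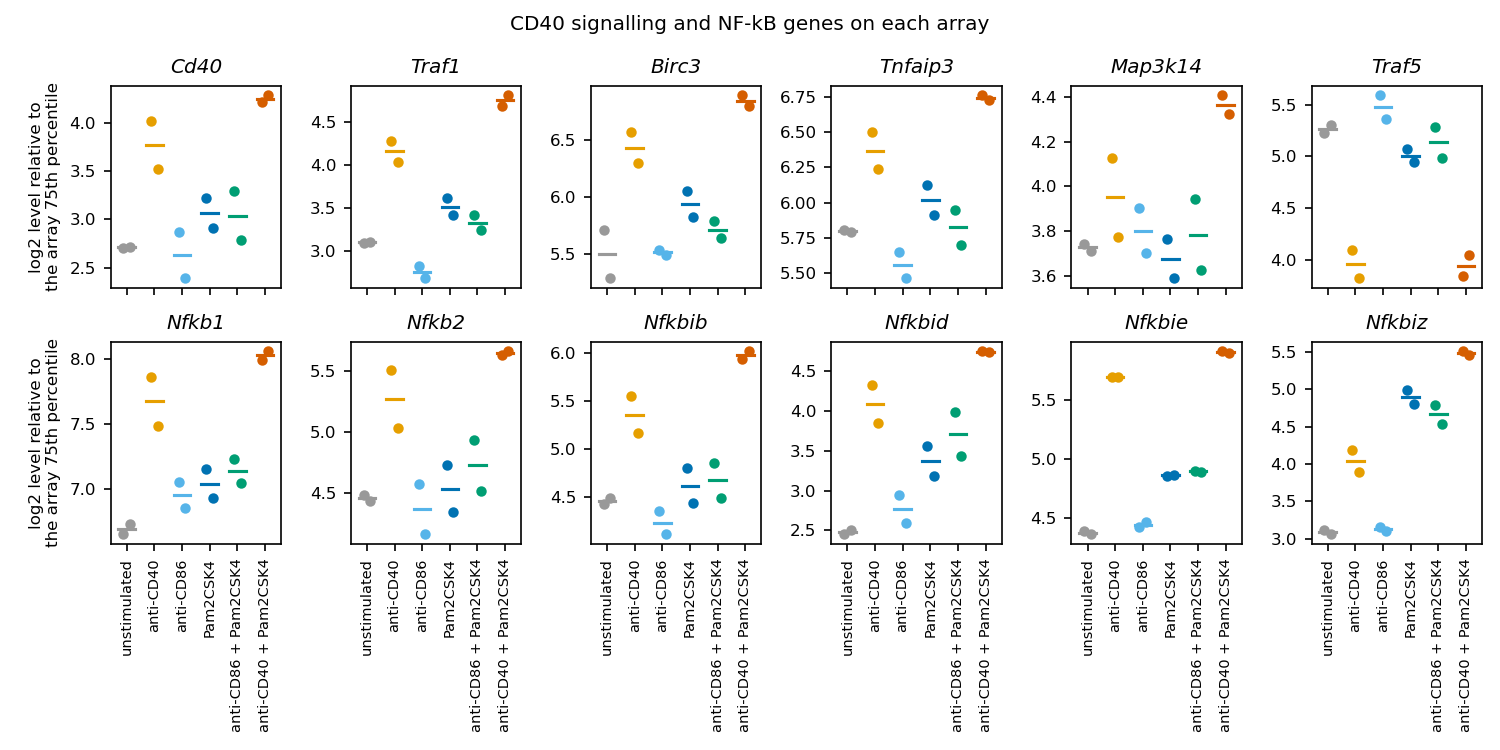
Levels of 12 genes of CD40 signalling and of NF-kB on every array; the y axis is the log2 level relative to the array 75th percentile and differs in range between panels, each point is 1 array and each line the mean of the 2 arrays of a group. In 11 of the panels the anti-CD40 and Pam2CSK4 arrays lie above both Pam2CSK4 arrays, for example at 4.69 and 4.81 against 3.61 and 3.41 for Traf1, and for Traf5 they lie below them.

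All 10 fitted genes of the NF-kB and IkB list were higher, with a median of 0.68, against 16.5% of all fitted genes. Among the NF-kB subunits, Nfkb2 stood at 4.73 and 4.34 with Pam2CSK4 and at 5.63 and 5.67 with anti-CD40 and Pam2CSK4 (1.86-fold, 0.90 ± 0.05, adjusted p = 0.000152). Nfkb1 lay at 7.15 and 6.93 against 7.99 and 8.06 (1.82-fold, 0.86 ± 0.07, adjusted p = 0.000448), and was saturated on 1 anti-CD40 and Pam2CSK4 array and on both arrays of anti-CD40 alone. Relb (0.45 ± 0.05), Rela (0.44 ± 0.06) and Rel (0.40 ± 0.09) were higher as well, but the other probes of Rela (0.07) and Rel (0.32) were not called. Among the inhibitors, Nfkbib went from 4.80 and 4.44 to 5.94 and 6.02 (2.28-fold, 1.19 ± 0.06, adjusted p = 0.000121), Nfkbie from 4.86 and 4.87 to 5.91 and 5.89 (2.06-fold, 1.05 ± 0.05, adjusted p = 8.02e-05), and Nfkbid, a nuclear IkB protein, from 3.55 and 3.18 to 4.75 and 4.73 (2.23-fold, 1.16 ± 0.07, adjusted p = 0.000156). The nuclear members Nfkbiz (0.50 ± 0.07) and Bcl3 (0.46 ± 0.06) were also higher.

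For each of these 10 genes both anti-CD40 and Pam2CSK4 arrays lay above both Pam2CSK4 arrays, an order that 58.5% of all probes showed in one direction or the other. Nfkbia, the remaining member, was saturated and has no fold change. Rel was not called without anti-CD40 and Pam2CSK4 replicate 2 (0.32), without Pam2CSK4 replicate 1 (0.44) or without Pam2CSK4 replicate 2 (0.37). With each array centred on its median, Nfkbib and Nfkbid stayed called, none of the 10 turned below 0, and the list's median was 0.50. Without the slide term 6 of the 10 stayed called.

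The kB consensus, the motif bound by NF-kB, was looked for on both strands of the 250 bases before each annotated start in the RefSeq promoters of build GRCm38.p6. At least 1 match was found for 10 of the 27 genes of the CD40 and NF-kB lists that have a promoter there (37%), and for 7 of the 15 such genes called higher (46.7%), against 8.23% of 27025 genes and 7.25% of 32851 promoters. The lists were chosen as CD40 and NF-kB genes, and a gene with several starts has more places for a match. These shares therefore do not bear on the change with anti-CD40. Of the 3 genes with the highest fold change in these lists (Nfkbib, Nfkbid and Traf1), Nfkbid held matches, and windows of 30 bases around them are shown because its transcript rose 2.23-fold; Nfkbie and Nfkb2 were added after their values were seen, as members of the same list with a match. Capitals mark the match, a near-palindrome can match on both strands, and a match is a description of the letters, not a site shown to be bound here.
Nfkbid, chr7:30422170-30422199, plus strand, match from 226 to 217 bases before the start: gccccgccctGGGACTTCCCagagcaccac
Nfkbid, chr7:30422215-30422244, plus strand, match from 181 to 172 bases before the start: gggccgaacaGGAATTCCCCgtgcgcgggg
Nfkbie, chr17:45555584-45555613, plus strand, match from 106 to 97 bases before the start: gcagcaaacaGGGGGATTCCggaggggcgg
Nfkb2, chr19:46304688-46304717, plus strand, match from 39 to 30 bases before the start: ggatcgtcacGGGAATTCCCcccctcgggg

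In the TLR2 pathway, which both groups received as stimulus, 2 of 12 fitted genes were higher, 3 lower and 7 not called, with a median of 0.02. For all fitted genes the shares were 16.5% higher and 19.7% lower. Tlr1, the other partner of TLR2, was higher: it stood at 1.36 and 1.14 with Pam2CSK4 and at 2.34 and 2.49 with anti-CD40 and Pam2CSK4 (2.07-fold, 1.05 ± 0.07, adjusted p = 0.000214). Tlr2 itself differed little, at 2.88 and 2.71 against 2.69 and 2.71 (-0.22 ± 0.06, adjusted p = 0.0435), and that call was lost without any 1 of the 4 arrays, with values from -0.29 to -0.17, and without anti-CD40 replicate 2 (-0.20). Irak3, a kinase-like inhibitor of the pathway, was lower by -0.74 ± 0.08 (adjusted p = 0.000901), with 2 more probes at -0.58 and -0.79. Irak2 was lower (-0.31 ± 0.08, lost without any 1 of the 4 arrays, -0.40 to -0.26) and Irak4 higher (0.67 ± 0.16, from 0.50 to 0.73 in the fits that lost it: without anti-CD40 and Pam2CSK4 replicate 2 and without either Pam2CSK4 array), and the other Irak4 probe gave -0.30.

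Among 21 fitted genes of activation and costimulation molecules, 12 were higher, 2 lower and 7 not called, with a median of 0.41. Across all fitted genes 16.5% were higher and 19.7% lower. After Il2ra, the largest rise was in Sema7a, a membrane semaphorin, at 5.24 and 5.20 with Pam2CSK4 and 6.90 and 6.73 with the addition (3.02-fold, 1.60 ± 0.07, adjusted p = 7.53e-05). Icam1, the ligand of the integrin LFA-1, went from 1.78 and 1.77 to 3.16 and 3.11 (2.47-fold, 1.31 ± 0.07, adjusted p = 0.000133). Fas, the death receptor, was higher by 1.14 ± 0.09 (3.44 and 3.41 against 2.28 and 2.05), and Fcer2a, the low affinity IgE receptor CD23, by 1.04 ± 0.06 (3.78 and 3.74 against 2.74 and 2.42). The groups did not overlap for any of these, as for 58.5% of all probes. Cd86, the costimulatory molecule whose antibody was used in other groups, differed by 0.25 ± 0.07 (adjusted p = 0.0333; 1.87 and 1.79 against 1.55 and 1.38), a call lost without any 1 of the 4 arrays, where it lay from 0.21 to 0.29. The lower members were Cd38 (-0.46 ± 0.09), an ectoenzyme of NAD, and Icosl (-0.32 ± 0.08), the ligand of the T cell receptor ICOS; Icosl was lost without any 1 of the 4 arrays (-0.35 to -0.29), and Cd38 without anti-CD40 and Pam2CSK4 replicate 2 (-0.47) and without either Pam2CSK4 array (-0.52 and -0.43). With median centring 4 members stayed higher and 0 lower, and without Pam2CSK4 replicate 1 the counts were 8 and 0.

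Cytokine genes were split: 4 of 18 were higher, 3 lower and 11 not called, median 0.01. Among all fitted genes 16.5% were higher and 19.7% lower. Ebi3, a subunit shared by IL-27 and IL-35, was 2.48-fold higher (1.31 ± 0.06, adjusted p = 7.47e-05), at 5.02 and 5.02 against 3.68 and 3.49. Lta, lymphotoxin alpha, was higher by 0.52 ± 0.06, and Tnf and Il12a were the other 2 higher members. Il4 (-0.61 ± 0.12; -0.58 and not called without Pam2CSK4 replicate 1) and Tgfb1 (-0.54 ± 0.07) were lower, with Il12b. Of the 4 higher members 2 were left without any 1 of the 4 arrays, and of the 3 lower members 1 without Pam2CSK4 replicate 1. Of 10 chemokine genes, Ccl4 was higher (0.32 ± 0.06), Cxcl16 (-0.29 ± 0.05) and Ccl3 (-0.21 ± 0.06) were lower and 7 were not called. Without Pam2CSK4 replicate 1 none of these 3 chemokine calls was left (0.29, -0.28 and -0.22), and Ccl3 was lost without any 1 of the other 3 arrays too (-0.26 to -0.17), and without anti-CD40 replicate 2 (-0.20).

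Of 17 fitted genes of the BCL2 family and PIM kinases, 9 were higher, 2 lower and 6 not called, with a median of 0.41. All fitted genes gave 16.5% higher and 19.7% lower. Beside Bcl2l1, the survival genes Bcl2a1b (6.61 and 6.35 to 7.81 and 7.93; 1.24 ± 0.07), Bcl2a1c (1.21 ± 0.06) and Bcl2a1a (1.07 ± 0.08, saturated on 1 anti-CD40 and Pam2CSK4 array and 1 array of anti-CD40 alone) were higher; these copies are nearly identical and their probes may read one another. The kinase genes Pim1, Pim2 and Pim3 were higher, as were the death-promoting members Bid and Bcl2l11. The lower members, Bmf (-0.52 ± 0.11) and Pmaip1 (-0.30 ± 0.07), are both death-promoting BH3 proteins. The other Bmf probe was not called (-0.18). Bmf was not called without either Pam2CSK4 array (-0.57 and -0.50), and Pmaip1 without any 1 of the 4 arrays (-0.32 to -0.28). Bcl2, Mcl1 and Bax were among those not called. With median centring 3 members stayed higher and 0 lower.

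Of 18 genes of ribosome, polyamine and nucleotide synthesis, needed for cell growth, 14 were higher, 1 lower and 3 not called. Their median was 0.72, and all fitted genes gave 16.5% higher and 19.7% lower. Nolc1, a nucleolar phosphoprotein, stood at 3.97 and 3.56 with Pam2CSK4 and at 5.53 and 5.52 with anti-CD40 and Pam2CSK4 (2.99-fold, 1.58 ± 0.06, adjusted p = 3.4e-05). Ppat, the first enzyme of purine synthesis (1.21 ± 0.08), and the ribosome assembly factors Nop16 (1.20 ± 0.08) and Rrs1 (1.18 ± 0.07) followed, and Srm, Odc1 and Sms of polyamine synthesis were higher too. The lower call was Ncl, nucleolin, whose brightest probe stood at 7.19 and 6.92 against 6.43 and 6.40 (-0.76 ± 0.05, adjusted p = 0.00028). Further Ncl probes read -0.84, 0.97 and 0.84, all called, so the direction of Ncl is not settled here. That probe was saturated on 1 of the 2 arrays of anti-CD40 alone. Within slide 1 alone, without the slide term and without Pam2CSK4 replicate 1, 10 members were higher, and with median centring 4.

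Cell cycle genes were split, with 6 of 27 higher, 6 lower and 15 not called, and a median of -0.06. The shares among all fitted genes were 16.5% higher and 19.7% lower. Ccnd2, cyclin D2 of the G1 phase, was 2.67-fold higher (1.41 ± 0.07, adjusted p = 8.02e-05), from 3.34 ± 0.26 to 4.97 ± 0.03 (mean ± SD, n = 2), with 2 more probes at 0.77 and 1.28. Myc, a transcription factor of growth, was 2.48-fold higher (1.31 ± 0.07, adjusted p = 0.000122), at 7.28 and 7.27 against 5.96 and 5.67, with 2 more probes at 1.38 and 1.33. Cdc25a, a phosphatase that activates cyclin-dependent kinases, was higher by 0.65 ± 0.13, with 0.61, 0.74 and 0.60 in the fits that lost the call (without anti-CD40 and Pam2CSK4 replicate 1 and without Pam2CSK4 replicates 1 and 2). Cdkn2d, an inhibitor of cyclin D kinases, was lower (-0.62 ± 0.09). Genes of DNA replication and mitosis such as Pcna, Mcm2 and Mki67 were among those not called. Without Pam2CSK4 replicate 1 the list had 3 higher and 2 lower, and with median centring 2 and 1. In the glycolysis list 3 of 16 were higher (Slc16a1, a lactate transporter, 0.75 ± 0.06, with other probes at 0.72 and, not called, 0.52; Pgam1, 0.54 ± 0.07; Hk2, 0.50 ± 0.09) and 3 lower, with Eno1 at -0.45 ± 0.12. The calls of Hk2 (0.50) and Eno1 (-0.36) were lost without Pam2CSK4 replicate 1, and that of Eno1 also without anti-CD40 and Pam2CSK4 replicate 2 (-0.36) and without Pam2CSK4 replicate 2 (-0.50); in each of these 3 fits 1 lower member was left.

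In the cholesterol list 4 of 16 were higher and 3 lower, beside 16.5% and 19.7% of all fitted genes. The higher ones were Srebf2, the transcription factor that drives the pathway (2.03-fold, 1.02 ± 0.06, adjusted p = 0.000186; 2.42 and 2.36 against 1.34 and 1.12), and the enzyme genes Mvd (0.84 ± 0.06), Idi1 (0.59 ± 0.05) and Hmgcs1 (0.49 ± 0.07). Further probes of Srebf2 (0.80) and Idi1 (0.69) were not called. The lower ones were Dhcr7, Sc5d and Fdft1, enzymes of later steps, of which 1 was left without either Pam2CSK4 array and within slide 1 alone. With median centring 0 genes of the glycolysis and cholesterol lists stayed called.

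Genes that set B cell fate changed in both directions, with 4 of 19 higher, 6 lower and 9 not called, median -0.15. Of all fitted genes 16.5% were higher and 19.7% lower. Batf (4.82 and 5.03 against 3.70 and 3.48; 2.38-fold, 1.25 ± 0.09) and Irf4 (5.19 and 5.12 against 3.93 and 4.05; 2.32-fold, 1.22 ± 0.05), transcription factors needed for class switching and for plasma cells, were higher, with Irf8 (0.56 ± 0.06) and Spib. Id3, an inhibitor of E proteins, was 2.29-fold lower (-1.19 ± 0.06, adjusted p = 0.000118), at 0.34 and 0.44 against 1.55 and 1.27. Bcl6, Pax5 and Prdm1 were among those not called. Within slide 1 alone 4 of these genes were higher and 3 lower, with 3 lower without Pam2CSK4 replicate 1 too, and with median centring 2 and 1. In the list of the B cell receptor and its inhibitory coreceptors the balance was to lower levels: 1 of 16 was higher, 8 lower and 7 not called, median -0.22. The higher gene was Btla, an inhibitory receptor of the immunoglobulin family (2.62-fold, 1.39 ± 0.07, adjusted p = 0.00012; 2.00 and 2.09 against 0.68 and 0.51). Fcgr2b, the inhibitory Fc receptor, was 2.37-fold lower (-1.25 ± 0.08, adjusted p = 0.000233; from 3.11 ± 0.16 to 2.04 ± 0.02, mean ± SD, n = 2), and Btk, a kinase downstream of the B cell receptor, was lower by -0.64 ± 0.06, as was the phosphatase gene Ptpn22 (-0.52 ± 0.08; -0.46 and not called without Pam2CSK4 replicate 1). The count of lower members of this list was 3 within slide 1 alone, 2 without Pam2CSK4 replicate 1, 3 without Pam2CSK4 replicate 2, 4 and 5 without anti-CD40 and Pam2CSK4 replicates 2 and 1, and 1 with median centring.

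Of 14 fitted trafficking receptor genes, 2 were higher, 6 lower and 6 not called, beside 16.5% higher and 19.7% lower among all fitted genes. S1pr1 and S1pr4, receptors of the sphingosine phosphate that guides lymphocytes out of tissue, were lower: S1pr1 went from 3.15 ± 0.21 to 1.99 ± 0.15 (mean ± SD, n = 2; 2.44-fold, -1.29 ± 0.09, adjusted p = 0.000232) and S1pr4 from 0.19 and -0.08 to -1.36 and -1.15 (2.68-fold, -1.42 ± 0.10, adjusted p = 0.000287). Ccr6, a chemokine receptor, was lower by -0.63 ± 0.08. Cxcr5, the receptor that leads B cells to follicles, was higher by 0.81 ± 0.06 (7.81 and 7.82 against 7.01 and 6.74), and Gpr183, an oxysterol receptor that leads B cells to the outer follicle, by 0.56 ± 0.06. Within slide 1 alone 2 were higher and 3 lower, 3 were lower without either Pam2CSK4 array or without anti-CD40 and Pam2CSK4 replicate 2, and with median centring S1pr1 and S1pr4 stayed lower.

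Antigen presentation had 1 of 16 higher (H2-DMa, 0.59 ± 0.07) and 6 lower, led by the peptide transporter genes Tap2 (-0.78 ± 0.07, adjusted p = 0.000546; 0.85 and 0.78 against 1.56 and 1.63) and Tap1 (-0.48 ± 0.10) and the immunoproteasome gene Psmb10 (-0.45 ± 0.05). Of 22 interferon-induced genes 17 were not called, with Irf1 higher (0.50 ± 0.06) and Bst2, Oasl1, Stat2 and Rsad2 lower. Of 17 immediate early genes 11 were not called; Jun (0.65 ± 0.10) and Ier5 (0.60 ± 0.06) were higher and Btg2, an antiproliferative gene, lower (-0.87 ± 0.07). Feedback regulators had 7 of 18 higher, led by the phosphatase genes Dusp1 (0.85 ± 0.07) and Dusp4 (0.72 ± 0.06), and 5 lower, among them Socs3 (-0.84 ± 0.05) and Gadd45a (-0.82 ± 0.07), with 3 higher and 2 lower without Pam2CSK4 replicate 1 and 0 and 2 with median centring. The unfolded protein response list had Hspa5 higher (0.34 ± 0.08), Pdia4, Ddit3, Asns and Xbp1 lower and 11 of 16 not called. Tap1 (-0.55 to -0.44) and Hspa5 (0.31 to 0.38) were lost without any 1 of the 4 arrays, and without any 1 of them the antigen presentation list had 2 lower, the interferon list 1 or 2 and the unfolded protein response list 1 or 2. Without Pam2CSK4 replicate 1 the immediate early list had 1 lower. Under median centring the interferon and unfolded protein response lists had 0 calls. The background for each of these lists was 16.5% higher and 19.7% lower among all fitted genes.

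**Figure D3:**
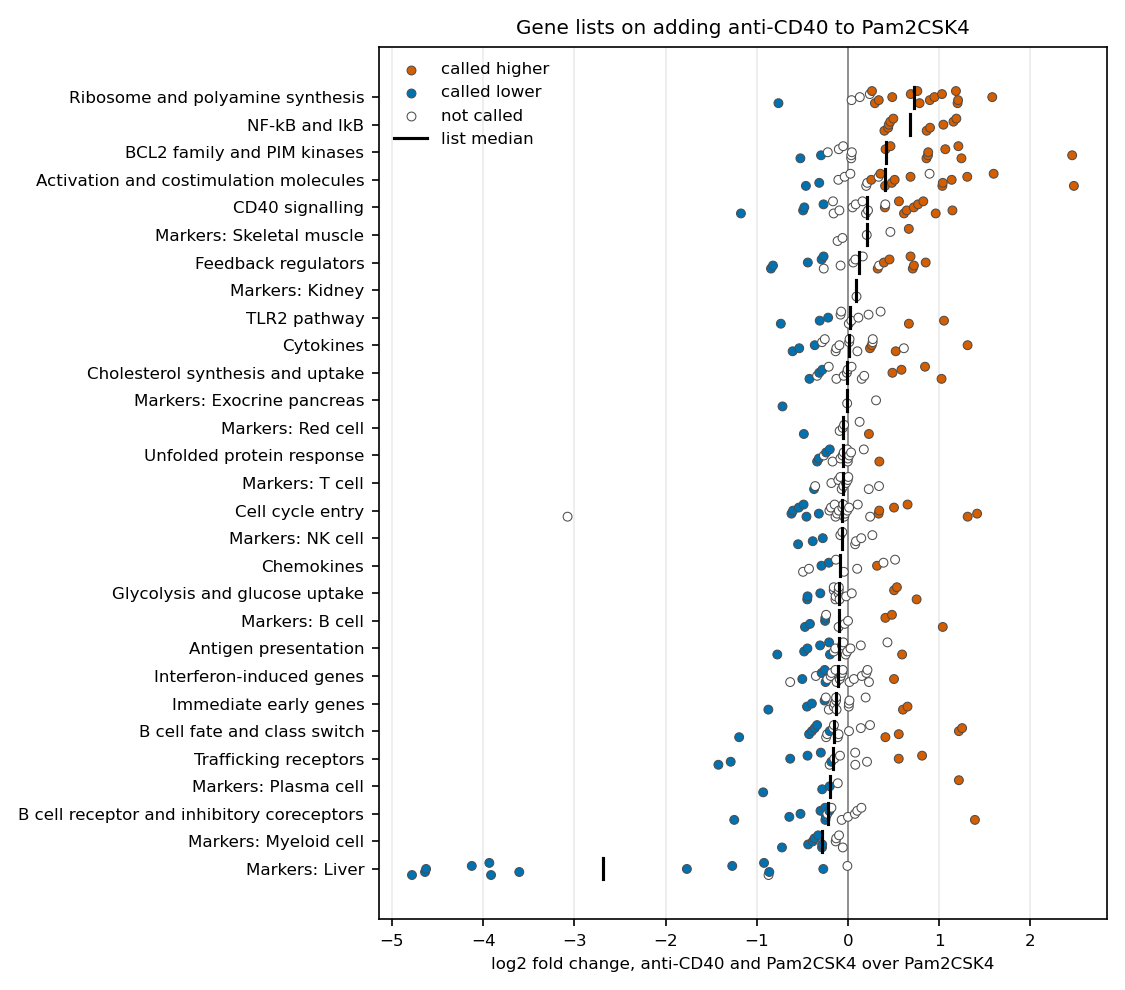
Log2 fold change, anti-CD40 and Pam2CSK4 over Pam2CSK4, of every fitted member of each gene list and marker list; filled points passed the test (orange higher, blue lower), open points did not, and the black line is the median of the list. The NF-kB, ribosome and survival lists lie mostly to the right of 0 (medians 0.68, 0.72 and 0.41) and the liver markers far to the left (median -2.69).

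Apart from liver genes, the lowest genes were Hmgxb4 and Abi3. Abi3, an adaptor of the actin-regulating WAVE complex family, stood at 3.04 and 2.81 with Pam2CSK4 and at 0.10 and 0.01 with anti-CD40 and Pam2CSK4, 8.22-fold lower (-3.04 ± 0.08, adjusted p = 9.32e-06). With anti-CD40 alone it lay between, at 2.08 and 1.75. Hmgxb4, an HMG box gene, rested on a single array: Pam2CSK4 replicate 1 was at 1.53 while replicate 2 and all unstimulated and single-agent arrays lay between -1.56 and -0.57, and without that array the change was -1.71 in place of -3.23. Its other probe gave 0.24 (adjusted p = 0.156).

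Because liver transcripts filled the lower end, the next 12 lowest genes were added after their values were seen. Among them Hmox1, heme oxygenase, stood at 3.60 and 3.32 against 1.02 and 1.12 (5.89-fold lower, -2.56 ± 0.08), while all 8 arrays of the other groups lay between 3.10 and 3.81. Irs1, an adaptor of insulin signalling, stood at 0.69 and 0.45 against -1.88 and -1.85 (5.77-fold lower, -2.53 ± 0.07), and Fcrla, an Fc receptor-like protein of B cells, at 4.25 and 4.15 against 2.37 and 2.41 (3.60-fold lower, -1.85 ± 0.07). Both were also low with anti-CD40 alone (Irs1 at -1.04 and -1.26, Fcrla at 2.55 and 2.37). Rabgap1l, Trim25, Pip5k1c and Slc10a7 showed the same order, with changes of -1.67, -1.65, -1.84 and -1.72. For Rabgap1l the other probes gave -0.86, -0.18 and 0.28, and for Pip5k1c 0.11 and for Slc10a7 -0.88, which was not called. Zfp719 (-1.70) and Dcaf5 (-1.64) were low on the anti-CD40 and Pam2CSK4 arrays and on none of the other 10. They were picked for their fall on the same arrays. Among all probes, 1772 of 31599 lay lower on both of these arrays than on all 10 others. The rest of these 12 were Apoc1 (-1.84), Pck1 (-1.77) and Cyp39a1 (-1.68), which are known from liver.

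Liver transcripts made up 10 of the 12 lowest genes. Mup1 and Mup2, major urinary proteins made by hepatocytes, stood at 3.29 and 3.06 and at 3.35 and 3.20 with Pam2CSK4, and at -1.30 and -1.38 and at -1.29 and -1.24 with anti-CD40 and Pam2CSK4. Mup1 was 24.7-fold lower (-4.63 ± 0.06, adjusted p = 1.37e-06), with further probes at -4.61 and -4.40. The Mup genes and pseudogenes are nearly identical and their probes may read one another, so Mup2, Mup3, Mup4, Mup-ps2, Mup-ps11 and Mup-ps15 (-4.64 to -3.91) are not 6 separate findings. Fabp1, the liver fatty acid binding protein, was lower by -4.15 ± 0.15, Serpina1d, an alpha-1 antitrypsin, by -3.98 ± 0.12 and Ahsg, fetuin-A, by -3.60 ± 0.10. Alb was well above background on only 1 of the 2 anti-CD40 and Pam2CSK4 arrays, and its fitted change was -4.78 ± 0.30 (adjusted p = 0.000181). The size of these changes depended on the background correction: with normexp Mup1 gave -3.89, the other Mup genes -3.93 to -2.51, Fabp1 -2.87, Serpina1d -3.36, Ahsg -2.74 and Alb -3.30, all still called.

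Genes that fell under the background on both anti-CD40 and Pam2CSK4 arrays have only a bound: Apoa2 was at least 17.6-fold lower, Mup-ps14 at least 17.1-fold, Fgg at least 13.1-fold, LOC100047573 at least 12.3-fold and Rbp4 at least 11.4-fold. For these the brighter group's mean was set against, on each dim array, the higher of the lowest signal called well above background and the probe's own signal. Of 14 fitted liver markers 12 were lower and 0 higher, median -2.69, beside 19.7% lower among all fitted genes, and 7 more had a bound. Tat, an enzyme of tyrosine breakdown (-0.01 ± 0.16), and Hpx, hemopexin (-0.87 ± 0.44), were not called. Hp, haptoglobin, which neutrophils also store, fell by less: it stood at 4.73 and 4.36 against 3.80 and 3.88 (-0.92 ± 0.06). Trf (-0.86 ± 0.14) and Ass1 (-0.27 ± 0.07), which many cell types express, and Apoa1 (-1.27 ± 0.23, well above background on 1 of the 2 anti-CD40 and Pam2CSK4 arrays) fell less too. Without Pam2CSK4 replicate 1, 8 of the 14 were lower, and Apoa1 (-1.20), Pck1 (-1.35), Trf (-0.72) and Ass1 (-0.24) were not called; Ass1 was also lost without each of the other 3 arrays (-0.31 to -0.23) and without anti-CD40 replicate 2 (-0.26).

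The low liver transcripts set the anti-CD40 and Pam2CSK4 group against all others, not only against Pam2CSK4. For 21 of the 31 liver genes both of its arrays lay below all 10 other arrays, an order shown by 1772 of 31599 probes. Liver genes detected above background on each of a group's arrays numbered 10 with anti-CD40 and Pam2CSK4 and 21 with Pam2CSK4. Within slide 1, and with slide left out of the fit, 10 liver markers stayed lower, and with median centring 11.

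**Figure D4:**
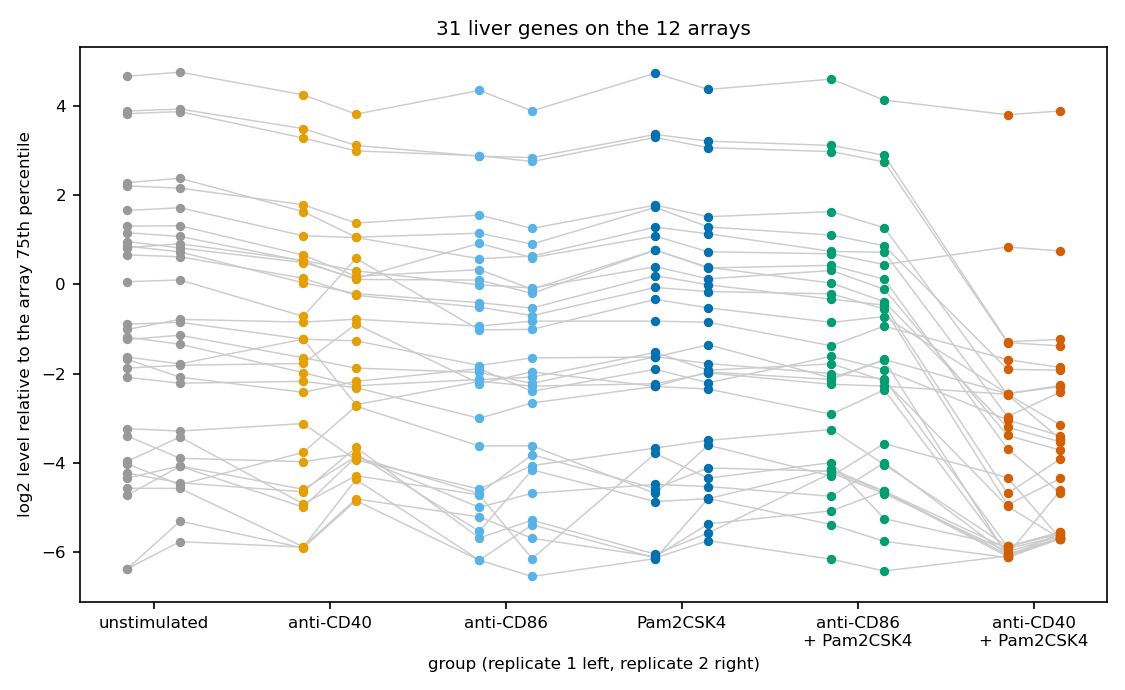
Levels of the 31 liver genes on all 12 arrays by group, with replicate 1 on the left and replicate 2 on the right; the y axis is the log2 level relative to the array 75th percentile, each point is 1 gene on 1 array and each grey line joins the values of 1 gene. For 21 genes both anti-CD40 and Pam2CSK4 arrays lie below all 10 other arrays, which also differ among themselves, as for Alb (-2.47 and -3.47 against 1.77 and 1.51 with Pam2CSK4).

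Markers of blood cells were present in all groups. All 12 B cell markers were detected above background on each array of every group, and the summed level of the 11 without the saturated Cd79b was 319 to 324 with anti-CD40 and Pam2CSK4 and 253 to 299.7 with Pam2CSK4; 3 of these 11 fitted markers were higher (Fcer2a, Ms4a1 and Spib) and 4 lower (Blk, Faim3, Cd79a and Cd22), median -0.10. Of the 4 lower B cell markers 1 was left without anti-CD40 and Pam2CSK4 replicate 1 or Pam2CSK4 replicate 1, 2 without either of the other arrays, and 0 within slide 1 alone. T cell markers were detected too, with sums of 35.8 to 35.9 against 31.0 to 36.6 and 1 of 12 lower (Cd8a, lost without anti-CD40 and Pam2CSK4 replicate 2 and without Pam2CSK4 replicate 1). Of the NK cell markers, 3 of 9 were lower (Gzmb, Nkg7 and Klrb1c), with sums of 18.7 to 19.5 against 18.6 to 20.9, and 1 was left without either Pam2CSK4 array or without anti-CD40 and Pam2CSK4 replicate 2. Myeloid markers were lower for 7 of 11, median -0.28, and the summed level without the saturated S100a9 was 216 to 225 against 226 to 251. Csf1r, the receptor of macrophage colony-stimulating factor, gave -0.72 ± 0.16 (adjusted p = 0.0154) on its brightest probe and 0.06, not called, on its other probe. Without Pam2CSK4 replicate 1 and within slide 1 alone 1 myeloid marker was called, without any 1 of the other 3 arrays 3, and Csf1r was not called without that array (-0.66) or without either anti-CD40 and Pam2CSK4 array (-0.74 and -0.71). Sdc1, a plasma cell marker, was lower (-0.93 ± 0.10), while Irf4 of the same list was higher. Red cell marker sums were 105.9 to 106.1 against 75.4 to 95.2. Of the 6 fitted red cell markers 1 was higher (Hbb-b1), 1 lower (Gata1) and 4 not called, median -0.05. The sums of all these lists carry no slide term. The background for the counts was 16.5% higher and 19.7% lower among all fitted genes. Fewer cells of a type and less RNA per cell cannot be told apart in such samples, and the part of other cells in the differences was not tested.

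The next question was whether anti-CD40 had the same effect with and without Pam2CSK4. The test of the difference between both changes (anti-CD40 and Pam2CSK4 over Pam2CSK4, minus anti-CD40 over unstimulated) called 2713 probes (8.59%), 1606 above 0 (5.08%) and 1107 below (3.5%), and 1305 fitted genes (8.7%), 902 above 0 (6.01%) and 403 below (2.69%). Il2ra was higher by 2.48 with Pam2CSK4 and by 3.61 without it, a difference of -1.13 (adjusted p = 0.0123). Bcl2l1 rose by 2.46 and 3.91 (difference -1.45, adjusted p = 0.00573), Icam1 by 1.31 and 2.75 (difference -1.44, adjusted p = 0.00154) and Irf4 by 1.22 and 1.93 (difference -0.71, adjusted p = 0.00636). For these 4 genes the starting level was already higher with Pam2CSK4 than in unstimulated cells, as for Icam1 at 1.78 and 1.77 against 0.31 and 0.27, and the level reached with anti-CD40 and Pam2CSK4 was above that with anti-CD40 alone, if only slightly for Icam1 (3.16 and 3.11 against 3.07 and 2.91).

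Med1 moved in opposite directions, 2.11 with Pam2CSK4 and -0.58 without it (difference 2.68, adjusted p = 9.08e-05), as did Slc7a1 (2.07 and -0.73, difference 2.80, adjusted p = 0.00451). Gm2180 (2.50 and -0.06) and Chmp4b (1.93 and 0.07) differed by 2.55 and 1.86. Srebf2 changed by 1.02 and 0.31 (difference 0.71, adjusted p = 0.0118). The brightest Ncl probe changed by -0.76 with Pam2CSK4 and by 0.63 without it, a difference of -1.40 (adjusted p = 0.00062), with the disagreement between its probes and the saturated array given above. In the CD40 list 1 of 22 genes differed (Traf4) and in the NF-kB list 2 of 10 (Nfkbid and Nfkbiz, -0.68 and -0.56); for Traf1 and Nfkbib the differences were -0.01 and 0.12 and did not pass the test. For all 7 members of the BCL2 and PIM list that differed, the difference was below 0. The liver markers called differed by -4.35 (Alb) to -0.46 (Hp). This test is more fragile than the first. Within slide 1 alone 19 probes were called, since the anti-CD40 group and the Pam2CSK4 group each had 1 array there, and the count was 398 without Pam2CSK4 replicate 1, 1186 without Pam2CSK4 replicate 2, and 1212 and 1026 without anti-CD40 and Pam2CSK4 replicates 1 and 2.

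**Figure D5:**
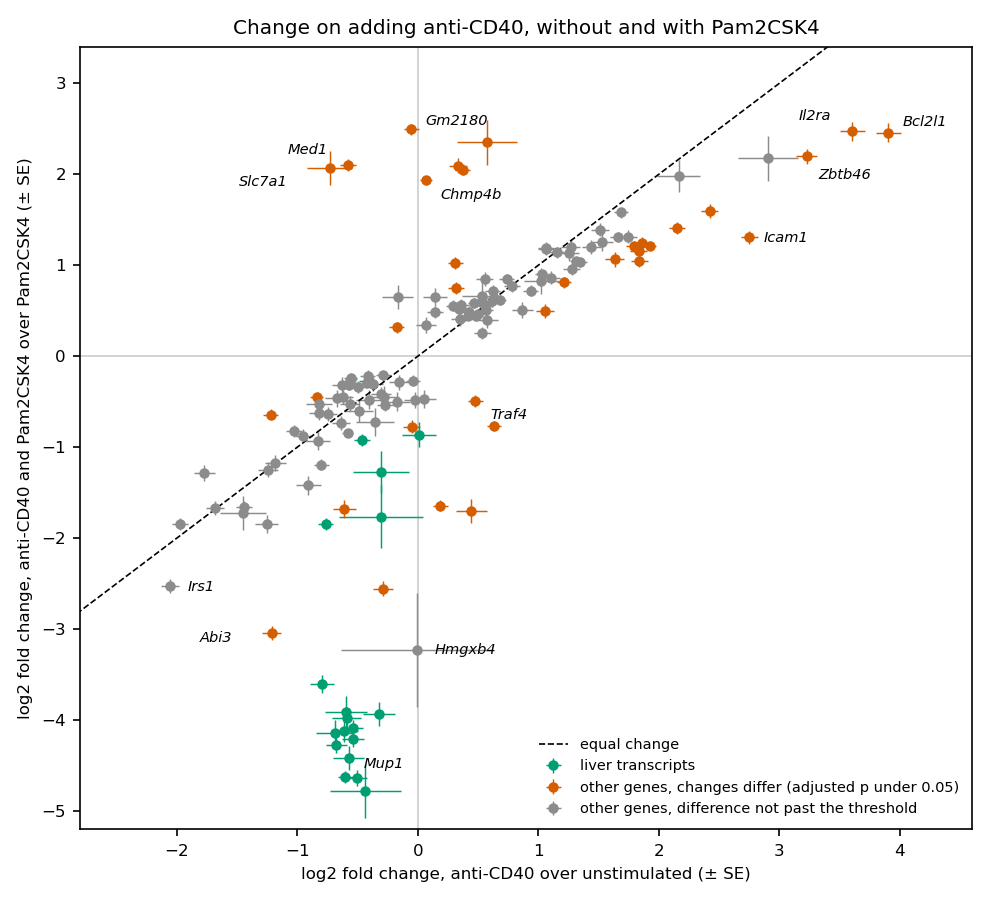
Log2 fold change on adding anti-CD40 without Pam2CSK4 (x axis, anti-CD40 over unstimulated) and with it (y axis, anti-CD40 and Pam2CSK4 over Pam2CSK4) for the named genes called in the latter; each point is 1 gene, bars are the SE of the fit and the dashed line marks equal change. Il2ra, Bcl2l1 and Zbtb46 lie under the line at the right (2.48 against 3.61 for Il2ra), Gm2180, Med1, Slc7a1 and Chmp4b above it near or left of 0, and most of the liver transcripts in green far below it.

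Anti-CD40 and Pam2CSK4 was last set against anti-CD86 and Pam2CSK4, where another antibody was added to the same lipopeptide. Of 31599 probes 10926 were called (34.6%), 6164 higher (19.5%) and 4762 lower (15.1%), and of the fitted genes 39.6% were called, 22.5% higher and 17% lower. This comparison shares the anti-CD40 and Pam2CSK4 arrays with the first, so the values stand side by side and are not independent. All 10 NF-kB genes were higher against this group too, as were 10 of the 22 CD40 genes, with Nfkbib at 1.13, Nfkbie at 1.01, Traf1 at 1.33 and Cd40 at 0.99. Il2ra was higher by 2.51 ± 0.10 and Bcl2l1 by 2.39, with anti-CD86 and Pam2CSK4 at -0.14 and -0.05 for Il2ra. Myc differed by 1.67 and Nolc1 by 1.33. Med1 differed by 1.00, since it stood at 1.01 and 0.86 with anti-CD86 and Pam2CSK4, above the -0.08 and -0.26 of Pam2CSK4. Traf3, which was higher than with Pam2CSK4, differed by 0.20 from anti-CD86 and Pam2CSK4 (adjusted p = 0.065), and Tlr2 by -0.01 (adjusted p = 0.929). Alb (-4.58), Mup1 (-4.31) and Abi3 (-3.18) were lower against this group as well.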

How the data were processed

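The 12 arrays were Agilent 1-colour expression arrays. Per the file headers, Feature Extraction 10.5.1.1 gave a processed signal per spot, an intensity corrected for background, and these deposited intensities were the input. The authors' own deposited table holds log2 processed signals less 1 constant for each array, near its 75th percentile, and was an alternative; further steps were by the methods done in GeneSpring GX, and probe positions were listed as unmapped.

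Outlier spots (5 to 35 per array) were left out, spots of a probe averaged, and log2 intensities scaled to the 75th percentile. Of 61307 probes, 31669 exceeded background clearly on each array of 1 group or more, and 70 with a missing value were left out. The fit was limma 3.58.1 (R 4.3.3), 1 coefficient per group and a slide term, with Benjamini-Hochberg adjustment over 31599 probes, and was tested on simulated data. The number of arrays limits the precision. Gene names are those of the array; 28136 of 40628 coding probe accessions matched the RefSeq table of GRCm38.p6. Groups came from the labels.

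Named were the 12 highest and 12 lowest genes called, above background and unsaturated on all 4 arrays without overlap, the 5 largest bounds, all CD40 and NF-kB members, and the called members with the largest changes of each other list. Tlr2, Cd86, Ncl, Pmaip1, Bmf, Icosl, Cd38, Gpr183, Csf1r, Sdc1, the next 12 lowest genes and list members given without a value were chosen after their values were seen. The members and lists were chosen with earlier results of these data known. Alternatives covered the slide, scaling, background, probe filter, moderation and single arrays; the arrays deposited for other questions entered through the shared fit.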

Additional observations from a re-analysis of the deposited data

Results flagged for a closer look

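For 49 named genes the change on adding anti-CD40 differed between cells with and without Pam2CSK4, by the interaction test of the limma fit (adjusted p under 0.05). Values are the change with Pam2CSK4 minus the change without it, on the log2 scale.

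Among the highest genes the difference was above 0 for Slc7a1 (2.80), Med1 (2.68), Gm2180 (2.55), Chmp4b (1.86), Chtf8 (1.77), Zfp445 (1.76) and Plagl2 (1.68), and below 0 for Bcl2l1 (-1.45), Il2ra (-1.13) and Zbtb46 (-1.03). In the signalling and activation lists it was below 0 for Icam1 (-1.44), Traf4 (-0.97), Sema7a (-0.83), Tlr1 (-0.79), Ccnd2 (-0.74), Irf4 (-0.71), Nfkbid (-0.68), Bcl2a1b (-0.62), Bcl2a1c (-0.58), Bcl2a1a (-0.57), Nfkbiz (-0.56) and Cxcr5 (-0.40). Traf4 and Ncl (-1.40) have probes that disagree in direction. In the other lists the values were Tap2 (-0.73), Srebf2 (0.71), Btk (0.58), Ccl4 (0.49), Slc16a1 (0.43) and Psmb10 (0.39). Among genes low with anti-CD40 and Pam2CSK4 they were Hmox1 (-2.27), Zfp719 (-2.15), Dcaf5 (-1.83), Abi3 (-1.83), Apoc1 (-1.08) and Cyp39a1 (-1.07).

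The largest differences below 0 among those named were in liver transcripts: Alb (-4.35), Mup2 (-4.13), Mup1 (-4.02), Mup-ps11 (-3.84), Mup-ps15 (-3.67), Fgb (-3.61), Mup-ps2 (-3.60), Mup4 (-3.55), Ambp (-3.51), Fabp1 (-3.46), Serpina1d (-3.39), Mup3 (-3.32) and Ahsg (-2.81). Other genes known from liver differed less: Hp (-0.46), and Apoc1 and Cyp39a1 given above. Within slide 1 alone 2 of the 49 stayed called (Mup1 and Mup2), and without Pam2CSK4 replicate 1 28 did. None of the 49 changed sign under the alternatives run.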

How the results depend on the processing

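The number of called probes depended on how the slide and the scale were treated. For anti-CD40 added to Pam2CSK4 (9950), anti-CD40 with against without Pam2CSK4 (2713) and anti-CD40 against anti-CD86 with Pam2CSK4 (10926), the counts were 3150, 365 and 3888 without the slide term, 5051, 19 and 6539 within slide 1 alone, 1560, 409 and 2106 with median centring, 4520, 261 and 5480 without the filter on dim probes, and 3196, 496 and 3831 with the one way test of the methods. With trend and robust moderation the second count was 4633. The 4 arrays alone gave 0 for the first. Of the calls, 67.5% were higher in the first comparison without the slide term and 66.1% with the one way test; with median centring 35.9% were higher against anti-CD86, in place of 56.4%, and 49.7% with quantile normalization. The balance of the second comparison was less stable: 59.2% of its calls were above 0, but 45.2% without the slide term, 15.8% within slide 1, 43.0% with median centring, 34.9% without the filter, and 38.2% to 55.99% with single arrays left out. Leaving out single arrays gave 4435 to 9826 and 398 to 2247 for the first 2 comparisons; the array of anti-CD40 replicate 2 was added to those left out after seeing the data.

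With the replicate number as a block the counts were 5382 (66.4% higher), 1404 and 6725. The deviations of same-numbered arrays of the 2 groups compared had a correlation of 0.0075 over probes. The Pam2CSK4 replicates lay on different slides and those of anti-CD40 and Pam2CSK4 on the same slide. This value therefore cannot show whether same-numbered samples were paired.

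Of 145 called named genes, 73 stayed called with median centring, 96 with the one way test, 99 without the slide term, 116 within slide 1 and 112 to 141 with single arrays left out; 0 did with the 4 arrays alone, and none reversed. The normexp background moved low levels by up to 3.60-fold, with Fgb at -2.08, Ambp at -2.43, Alb at -3.30, Mup3 at -2.51, Fabp1 at -2.87, Chtf8 at 1.36 and Olfr1394 at 1.32. Olfr1394 and Hmgxb4 lost their calls without the slide term (1.72 and -2.71).

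Only genes that were not called changed sign. Traf2 was -0.094 with median centring. Tnip2 was 0.013 and Chuk 0.0076 without the slide term, with the replicate block and with the one way test. Ikbkg was -0.057 within slide 1 and in the 4 arrays alone, -0.13 with median centring and with quantile normalization, and -0.11 to 0.23 with single arrays left out. N4bp1 was -0.14 within slide 1 and in the 4 arrays alone, -0.020 with median centring, and -0.14 to 0.66 with single arrays left out. Tat was 0.13 with the normexp background and -0.087 to 0.12 with single arrays left out. The cause of these shifts was not tested. In the first comparison the SE was 0.21 for Ikbkg, 0.45 for N4bp1 and 0.16 for Tat. This spread limits what can be read for them.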

Other observations

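Probes for noncoding RNAs were tilted to one side with the main scaling, the only setting in which they were counted apart. Over all probes, median centring moved the share of calls that were higher from 54.8% to 35.1%. Of 8427 such probes tested, 1586 were higher with anti-CD40 and Pam2CSK4 than with Pam2CSK4 (18.8%) and 498 lower (5.91%), against 17.3% and 14.2% of all probes. No noncoding transcript is named here, because these probes were not tied to gene names.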
